A study of Mus musculus with 4 samples.

Results

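The regions described here carried H4K20me3 without a called region of any other profiled factor, but with REST or Ring1b reads above the genome mean. H4K20me3, trimethylated lysine 20 of histone H4, was mapped beside the factors REST, Ring1b and MCAF1 in untreated mouse ES cells of the V6.5 line (strain C57BL/6-129). Chromatin immunoprecipitation was followed by sequencing, with 1 library per antibody, so no replicate spread exists and no difference between antibodies can be tested. Per the labels' protocols, the cells came from irradiated fibroblast feeders and were passaged on gelatin without feeders before the experiment, 1 time for REST and 2 times for the other antibodies, so that passage and antibody cannot be told apart. A region was called where windows of 1000 bp, placed every 500 bp, held at least 5 times background at a Poisson probability of at most 1e-09, and overlapping windows were joined. Background was the larger of the genome mean and the mean of the surrounding 1 Mb in the same library. Of 9463 H4K20me3 regions, 3973 (41.98%) overlapped no region of REST, Ring1b or MCAF1. The 2650 of these in which REST or Ring1b read density over the region was at least 2 times its genome mean are called sub-threshold regions, and they made up 28.0% of all H4K20me3 regions. The other 1323, with both factors under 2 times, are called factor-poor regions and serve as the comparison. A second comparison set, called Ring1b-shared, held the 3982 H4K20me3 regions that overlapped a Ring1b region and no REST or MCAF1 region.

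H4K20me3 is laid down by the SUV4-20H enzymes, which are recruited through HP1 proteins bound to methylated histone H3 lysine 9, and it is known chiefly from constitutive heterochromatin such as pericentric repeats. Ring1b is the catalytic ubiquitin ligase of Polycomb repressive complex 1, which marks histone H2A at developmental genes in embryonic stem cells. REST binds a long DNA element and represses neuronal genes outside neurons. MCAF1, the product of the gene Atf7ip, binds SETDB1, an enzyme that trimethylates histone H3 lysine 9.

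After 1 read was kept per position and strand, the nuclear reads numbered 3129369 in the REST library, 3083311 in the Ring1b library, 11023569 in the MCAF1 library and 7782972 in the H4K20me3 library. A covered window held on average 1.36 REST, 1.34 Ring1b, 4.79 MCAF1 and 3.38 H4K20me3 reads. Of all covered windows, 0.396% were called for H4K20me3, 0.1% for REST, 0.625% for Ring1b and 0.0726% for MCAF1. At this depth the threshold of 2 times rested on few reads. A region of 1000 bp passed with 3 reads of either factor, one of 1500 bp with 5 and one of 2000 bp with 6. The intervals given are exact 95% intervals. Reads from amplified DNA can be copies of 1 molecule and regions are not replicates, so these intervals describe counting error alone.

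Most sub-threshold regions reached the threshold of 2 times for both factors. REST and Ring1b both reached 2 times in 1879 regions (70.9%, 69.1% to 72.6%), REST alone in 422 (15.9%) and Ring1b alone in 349 (13.2%). The share of H4K20me3-only regions with either factor at 2 times was 66.7%, with REST 57.9%, with Ring1b 56.1% and with both 47.3%. Among H4K20me3-only regions of 1000 bp, either factor reached 2 times in 71.1%, REST in 61.2%, Ring1b in 60.1% and both in 50.2%. Of all covered stretches of 1000 bp, 23.5% reached that level for either factor, 16.7% for REST, 12.2% for Ring1b and 5.38% for both. Among H4K20me3-only regions of 1500 bp the shares were 64.2% for either factor, 56.6% for REST, 55.8% for Ring1b and 48.2% for both, against 13.2%, 9.63%, 7.18% and 3.62% of all covered stretches of 1500 bp. These densities chose the regions, so the shares describe the choice and are not tested.

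**Figure D1:**
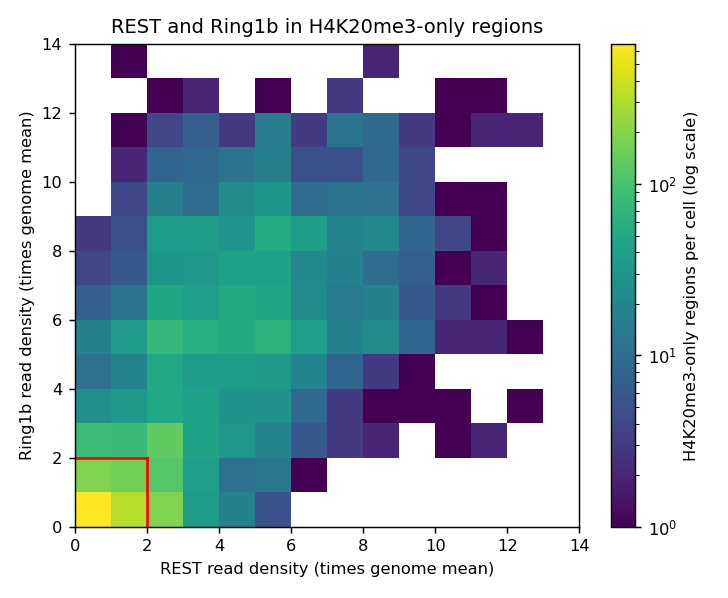
Number of H4K20me3-only regions by REST read density (horizontal axis) and Ring1b read density (vertical axis), both as multiples of the genome mean; colour gives the number of regions per cell on a log scale, and the red square encloses densities under 2 times. The 1323 factor-poor regions lie inside the square and the 2650 sub-threshold regions outside it; 16 regions with a density above 14 are not drawn.

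Read densities of the factors varied widely among the sub-threshold regions. REST had a median density of 3.67 times in sub-threshold regions, with the 10th and 90th percentiles at 1.47 and 7.35, and 0.735 times in factor-poor regions. Ring1b had a median of 5.22 times in sub-threshold regions, with those percentiles at 1.49 and 9.45, and 0.746 times in factor-poor regions. In reads, the median sub-threshold region held 6.5 REST and 9 Ring1b reads, against 2 and 1 in the median factor-poor region. Regions with both factors had medians of 4.41 times for REST and 6.46 times for Ring1b. Where REST alone passed, REST stood at 2.94 times, and where Ring1b alone passed, Ring1b stood at 3.48 times. Ring1b-shared regions had a median REST density of 4.41 times and a median Ring1b density of 16.4 times. The Ring1b gap between these sets follows from the rule, which left every called Ring1b region out of one set and required one in the other.

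The reads fell short of a call by different margins for the 3 factors. An average window needed 14 reads for a REST or Ring1b call and 24 for an MCAF1 call. The highest window of a sub-threshold region held a median of 6 REST reads (3.32 times background), 8 Ring1b reads (4.33 times) and 16 MCAF1 reads (2.43 times). Ring1b reached 5 times background in 1097 of the 2650 regions (41.4%) without reaching the probability threshold, and REST did so in 590 (22.3%). MCAF1 reached 5 times background in 0 regions, although 95 already met the probability of 1e-09 for it. At a probability of 1e-06, 598 regions (22.6%) would have passed for Ring1b, 201 (7.58%) for REST and 477 (18.0%) for MCAF1, before any condition on fold. The shares of all covered windows and of factor-poor regions at these levels were not computed. REST and Ring1b densities chose the sub-threshold regions, so the counts of both factors partly describe the choice. With the 5-fold condition kept, a looser probability would add no MCAF1 call in these regions. The word only in H4K20me3-only therefore refers to the calls: with REST, Ring1b and MCAF1 called at 1e-06 and the 5-fold condition kept, 1786 sub-threshold regions remained by the same rule, and with these libraries called at 0.001 and 3-fold, 656.

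Because the regions were picked for high counts, each factor's reads were divided by strand, so that regions chosen by the reads of one strand were counted again on the other strand, whose reads had not chosen them. Of 2071 H4K20me3-only regions with plus-strand REST density of at least 2 times, 73.7% (71.8% to 75.6%) also passed on the minus strand, against 27.3% (25.3% to 29.4%) of the 1902 that plus-strand reads had not chosen. The median REST density of the chosen regions was 4.41 times on the strand that chose them and 3.92 times on the other. For Ring1b, 84.5% (82.9% to 86.0%) of 2100 chosen regions passed on the minus strand, against 19.1% (17.4% to 21.0%) of the 1873 regions not chosen. The median of the chosen regions was 5.97 and 5.96 times on the choosing and the other strand. With the strands exchanged the shares were 74.6% against 28.2% for REST and 83.2% against 17.7% for Ring1b. On a single strand the threshold rested on fewer reads than on both strands together. The share of all covered stretches that pass on a strand was not computed. The strands come from the same library and the absence of a call used both, so this comparison speaks to counting error and not to replicates. Local read density from any source is shared by both strands, so the shares do not show that a factor was bound.

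MCAF1 density, which entered the rule only through the absence of an MCAF1 region, was higher in sub-threshold than in factor-poor regions. Its median was 2.92 times the genome mean (2.92 to 3.06) in sub-threshold regions and 1.67 times (1.67 to 1.81) in factor-poor regions, and it was also 2.92 times (2.92 to 3.004) in Ring1b-shared regions. MCAF1 reached 2 times in 80.4% of sub-threshold regions (78.8% to 81.9%) and in 38.0% of factor-poor regions (35.4% to 40.7%), where 11.4% of all covered stretches of 1000 bp and 9.36% of those of 1500 bp did so. At a fixed width of 1000 bp the medians were again 2.92 and 1.67 times. Among sub-threshold regions MCAF1 stood at 3.13 times with both factors, 2.503 times with Ring1b alone and 2.31 times with REST alone.

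H4K20me3 itself differed little between the sets. Its median density was 7.88 times in sub-threshold regions, with the 10th and 90th percentiles at 6.20 and 11.5, and 7.09 times in factor-poor regions. Relative to the background used for the call, the order turned: the median fold of the highest window was 6.24 (6.20 to 6.31) in sub-threshold regions and 6.73 (6.58 to 6.80) in factor-poor regions. The median of the surrounding 1 Mb was 1.35 times the genome mean for H4K20me3 around sub-threshold regions and 1.12 times around factor-poor regions. Sub-threshold regions were narrow: 1428 (53.9%) were 1000 bp wide and 996 (37.6%) 1500 bp, and 19 were wider than 3 kb. Factor-poor regions of 1000 bp made up 43.9% of their set and those of 1500 bp 41.95%.

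Across all H4K20me3-only regions, MCAF1 was higher at each step of Ring1b density. The median MCAF1 density was 1.67 times where Ring1b was under 1, 2.29 times for Ring1b of 1 to 2, 2.78 times for 2 to 4, 3.06 times for 4 to 6, 3.13 times for 6 to 8 and 3.48 times for 8 or more. The median REST density over the same steps was 0.980, 1.47, 2.57, 4.41, 4.41 and 5.39 times. Within the sub-threshold set the Spearman correlation was 0.493 between REST and Ring1b, 0.335 between REST and MCAF1 and 0.269 between Ring1b and MCAF1. Between H4K20me3 and REST it was 0.202, Ring1b 0.117 and MCAF1 0.248. Over the 1428 sub-threshold regions of 1000 bp, the values were 0.495 for REST with Ring1b, 0.348 for REST with MCAF1 and 0.309 for Ring1b with MCAF1, and H4K20me3 reached 0.291 with REST, 0.198 with Ring1b and 0.256 with MCAF1. These 2650 regions are points of the same 4 libraries and share their mappability and base composition, and the choice by REST or Ring1b shapes the first value.

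**Figure D2:**
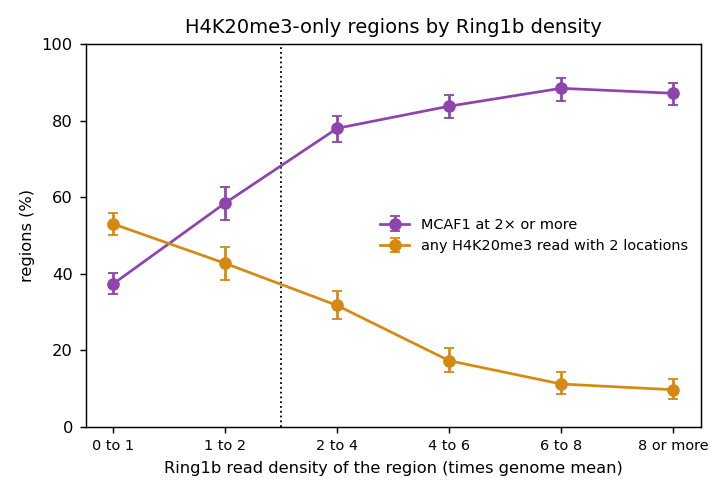
Share of H4K20me3-only regions (vertical axis, percent, with exact 95% intervals) that had MCAF1 density of at least 2 times the genome mean (purple) or any H4K20me3 read with 2 reported locations (orange), by the Ring1b density of the region (horizontal axis). Regions right of the dotted line are all sub-threshold, and those left of it comprise the 422 that passed through REST alone and the 1323 factor-poor regions; the purple share was 37.4% in the lowest step and 87.1% in the highest, and the orange share 53.0% and 9.66%.

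Reads with 2 reported locations, which took no part in the choice of regions, separated the sets more clearly than the depth of H4K20me3 did. At least 1 such H4K20me3 read lay in 561 sub-threshold regions (21.2%, 19.6% to 22.8%), in 714 factor-poor regions (54.0%, 51.2% to 56.7%) and in 381 Ring1b-shared regions (9.57%, 8.67% to 10.52%). MCAF1 showed the same order, with 18.9% (17.5% to 20.5%) of sub-threshold, 44.3% (41.6% to 47.0%) of factor-poor and 7.68% of Ring1b-shared regions. The share with any such Ring1b read was 27.1% in sub-threshold, 20.7% in factor-poor and 46.7% in Ring1b-shared regions, and the REST shares were 25.9%, 29.8% and 25.3%. These shares move with the number of reads of each factor, by which the sets were chosen. Per 100 reads with 1 location, Ring1b had 7.24 alignments with 2 locations in sub-threshold regions (6.90 to 7.59), 24.0 in factor-poor regions (21.8 to 26.3) and 2.76 in Ring1b-shared regions, and REST had 7.65, 26.4 and 3.94. The REST and Ring1b reads with 1 location chose the sets, so the choice shapes these ratios. Per kb the order turned, with 0.497 such Ring1b alignments in sub-threshold and 0.242 in factor-poor regions, and 0.420 and 0.329 for REST. For H4K20me3, whose reads took no part in dividing the sets, the values per 100 reads with 1 location were 3.996 in sub-threshold (3.87 to 4.12), 7.58 in factor-poor (7.34 to 7.82) and 0.959 in Ring1b-shared regions, and for MCAF1 5.04, 11.2 and 0.995. At a fixed width of 1000 bp the H4K20me3 shares were 16.2% in sub-threshold, 45.1% in factor-poor and 7.74% in Ring1b-shared regions.

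**Figure D3:**
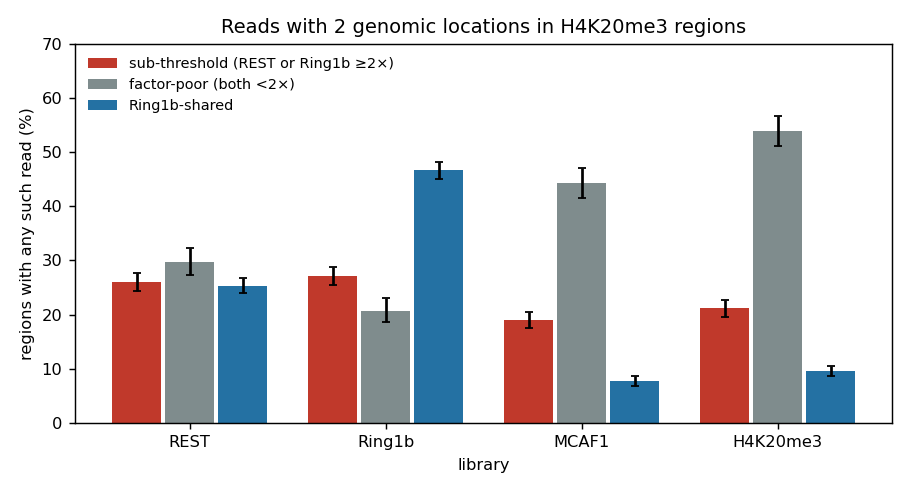
Share of regions (vertical axis, percent, bars from 0 with exact 95% intervals) that held at least 1 read with 2 reported locations, for each library (horizontal axis) in sub-threshold, factor-poor and Ring1b-shared H4K20me3 regions. In the H4K20me3 and MCAF1 libraries the factor-poor bar is the highest, at 54.0% and 44.3%, and the sub-threshold bars reach 21.2% and 18.9%.

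Among the sub-threshold regions, 15.8% of those with both factors held an H4K20me3 read with 2 locations (14.2% to 17.5%), against 37.0% with REST alone (32.3% to 41.8%) and 30.9% with Ring1b alone (26.1% to 36.1%). In summed reads the contrast with factor-poor regions was smaller. H4K20me3 alignments of this kind numbered 1.16 per kb in sub-threshold regions (1.13 to 1.20), 2.08 in factor-poor regions (2.02 to 2.15), 0.285 in Ring1b-shared regions and 0.244 over covered sequence. The highest 1% of sub-threshold regions held 54.0% of these alignments. REST and Ring1b reads were aligned with a seed of 26 bases and MCAF1 and H4K20me3 reads with 36, per the file headers, and the part of this difference in the choice of regions was not tested. The MCAF1 difference was as large in the 1638 H4K20me3-only regions with no read of 2 locations in any library. There median MCAF1 density was 3.06 times (2.92 to 3.13) in 1271 sub-threshold regions and 1.67 times (1.67 to 1.81) in 367 factor-poor regions. Reads with more than 2 locations had been dropped, so these regions can still hold repeated sequence, and its part in the difference was not tested.

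MCAF1 reads were centred on the H4K20me3 signal in both sets. In the central 1 kb of sub-threshold regions, mean density stood at 9.55 times for H4K20me3, 4.38 times for REST, 5.61 times for Ring1b and 3.20 times for MCAF1. At 2 to 5 kb from the centre the same libraries lay at 1.91, 1.56, 1.49 and 1.59 times, so that the centre exceeded its surroundings 4.997-fold for H4K20me3, 2.82-fold for REST, 3.77-fold for Ring1b and 2.01-fold for MCAF1. In factor-poor regions the same ratios were 5.32 for H4K20me3, 1.06 for REST, 0.984 for Ring1b and 1.88 for MCAF1. Relative to its own surroundings MCAF1 was therefore similarly centred in both sets, and the difference in its level extended over the 5 kb examined. REST and Ring1b density inside the region chose the sets, and for regions of 1000 bp the central 1 kb is the region itself, so the central values and ratios of these factors describe the choice and are not evidence of centring.

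**Figure D4:**
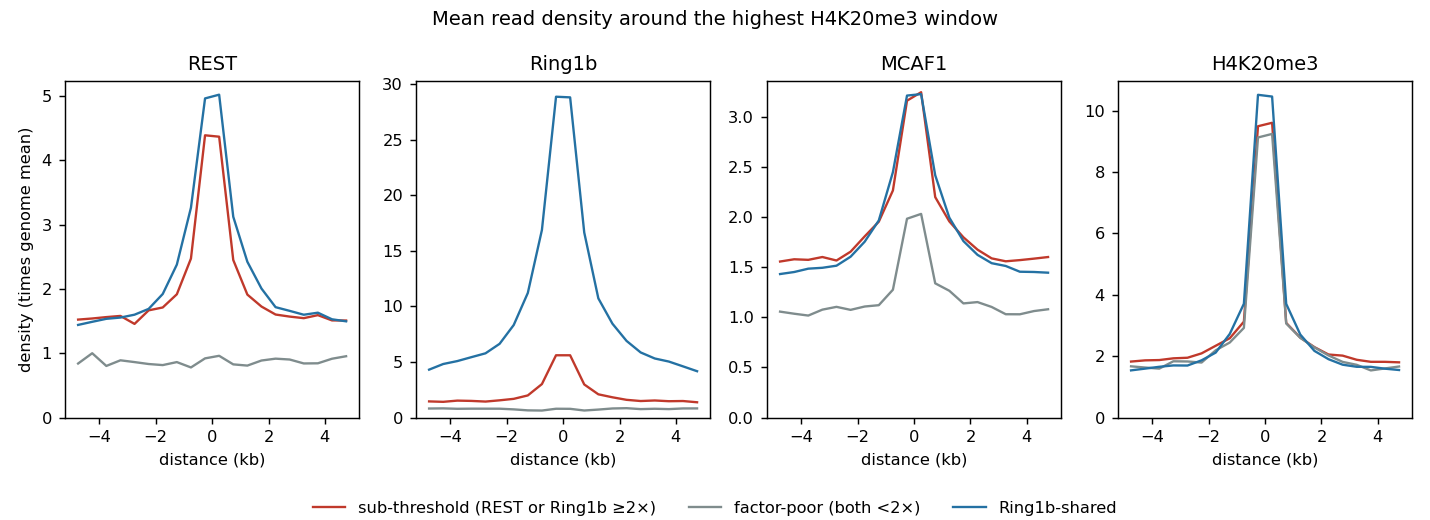
Mean read density (vertical axes, multiples of the genome mean, different scales) against distance in kb from the centre of the highest H4K20me3 window (horizontal axes) for the 4 libraries, in sub-threshold (red), factor-poor (grey) and Ring1b-shared (blue) regions. The MCAF1 curves of sub-threshold and Ring1b-shared regions run together, at 3.20 and 3.22 times in the central 1 kb, while their Ring1b curves, which the choice of the sets separates, stand at 5.61 and 28.9 times.

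Outside the regions the difference remained at a lower level. From 1 to 5 kb beyond the edges, Ring1b density was 1.498 times the genome mean (1.48 to 1.51) around sub-threshold regions, 0.813 times (0.798 to 0.828) around factor-poor regions and 5.18 times around Ring1b-shared regions. Leaving out regions within 10 kb of a Ring1b region, it was 1.20 times (1.18 to 1.21) and 0.678 times (0.664 to 0.693) for sub-threshold and factor-poor regions. Around all regions of the sub-threshold and factor-poor sets, REST in the flanks was 1.56 and 0.890 times, and MCAF1 1.60 and 1.07 times. Without the regions within 10 kb of a Ring1b region, REST was 1.39 and 0.817 times, and MCAF1 1.47 and 0.999 times. All 4 libraries were also denser over the surrounding 1 Mb of sub-threshold regions, with medians of 1.35 times for H4K20me3, 1.25 for REST, 1.26 for Ring1b and 1.33 for MCAF1, against 1.12, 1.05, 1.01 and 1.13 times around factor-poor regions. The part of this regional read density in the values above was not tested. By the same rule 2428 regions passed when the REST or Ring1b density was set against the larger of the genome and the 1 Mb mean. Their median MCAF1 density was 3.06 times, against 1.81 times in the factor-poor regions of that setting. MCAF1 density itself was still a multiple of the genome mean, so these medians are not corrected for regional density.

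Sub-threshold regions were mostly apart from called regions of the other libraries, with which the rule allowed no overlap. The share of all covered sequence at such distances was not computed, so the values below compare the sets only. The median distance to the nearest Ring1b region was 45.0 kb for sub-threshold and 73.5 kb for factor-poor regions. Ring1b regions lay within 10 kb of 511 sub-threshold regions (19.3%, 17.8% to 20.8%) and of 136 factor-poor regions (10.3%, 8.70% to 12.0%), and within 1 kb of 134 and 15. REST regions lay within 10 kb of 6.38% of sub-threshold regions (5.48% to 7.38%) and 2.57% of factor-poor regions (1.79% to 3.57%). MCAF1 regions lay within 10 kb of 6.94% (6.00% to 7.98%) and 6.35% (5.10% to 7.80%), a difference inside the counting intervals. Another H4K20me3 region was nearby less often for sub-threshold regions, within 10 kb of 24.6% (23.0% to 26.3%) against 37.7% of factor-poor regions (35.1% to 40.4%). Regions that passed through REST alone lay within 10 kb of another H4K20me3 region in 44.8% of cases (39.97% to 49.7%), those with both factors in 20.2% (18.4% to 22.1%).

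Sub-threshold and factor-poor regions were spread differently over the chromosomes. Per Mb of covered sequence, sub-threshold regions were most frequent among autosomes on chromosome 11, at 1.77 (1.54 to 2.04), and least on chromosome 12, at 0.916 (0.741 to 1.12). On chromosome 11, factor-poor regions lay at 0.485 per Mb (0.366 to 0.632), and sub-threshold regions made up 78.5% of the H4K20me3-only regions (73.0% to 83.4%). On chromosome 10 the share was 55.6% (48.7% to 62.4%), with 1.01 sub-threshold and 0.807 factor-poor regions per Mb. The X chromosome had 43 sub-threshold and 10 factor-poor regions, or 0.377 (0.273 to 0.508) and 0.0877 (0.0420 to 0.161) per Mb. Background for a call was never under the genome mean, so a chromosome with few reads needs more local enrichment. The part of this in the X values was not tested. Over the 19 autosomes, which share the same 4 libraries, the Spearman correlation of sub-threshold regions per Mb with the chromosome's read density was 0.512 in the H4K20me3 library, 0.514 in REST, 0.582 in Ring1b and 0.575 in MCAF1. For factor-poor regions per Mb it was -0.472, -0.456, -0.491 and -0.472 in the same libraries, and the part of read density in the spread was not tested. The Y chromosome had 4 sub-threshold and 0 factor-poor regions in 1.36 Mb of covered sequence, or 2.95 sub-threshold regions per Mb (0.803 to 7.54).

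**Figure D5:**
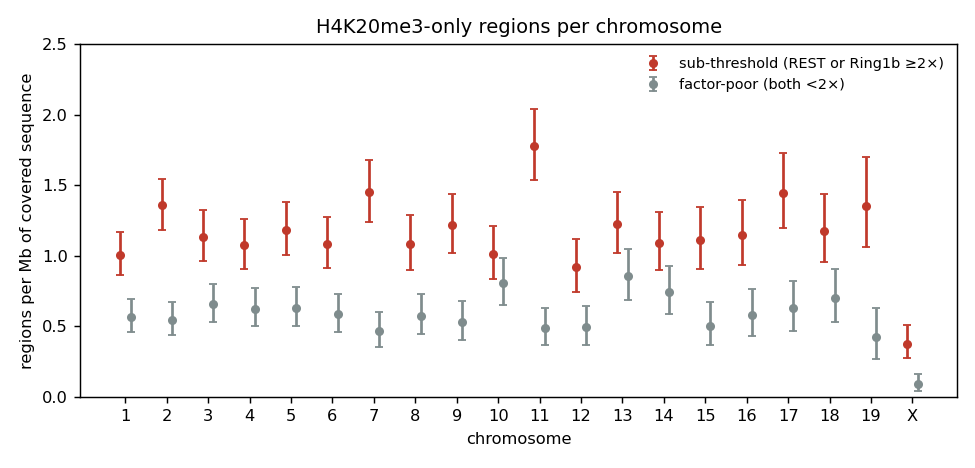
Sub-threshold (red) and factor-poor (grey) H4K20me3-only regions per Mb of covered sequence (vertical axis, with exact Poisson 95% intervals) on each autosome and the X chromosome (horizontal axis). Chromosome 11 had the highest sub-threshold value of the autosomes, at 1.77 per Mb, and chromosome X the lowest values of both sets.

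Of the 5 regions with the highest H4K20me3 fold, 4 had REST and Ring1b densities with lower bounds under 2 times. The highest fold belonged to chr7:6881501-6883000 (mm8, as all coordinates here), where 98 H4K20me3 reads in the highest window gave 29.0 times background (23.5 to 35.3). The region held 6 REST reads, or 2.94 times the genome mean (1.08 to 6.397), 6 Ring1b reads, or 2.98 times (1.10 to 6.49), and 24 MCAF1 reads, or 3.34 times (2.14 to 4.97). It also held 261 H4K20me3 alignments with 2 locations. The next, chr15:49798501-49800500, had 26.3-fold H4K20me3 (21.1 to 32.4) with 10 Ring1b reads (3.73 times) and 1 REST read, and its nearest Ring1b region was 1026.5 kb away. At chr13:13653501-13655500 the fold was 19.8 (15.3 to 25.1), with 6 REST reads, 1 Ring1b read and 13 MCAF1 reads. At chr1:129918001-129920000 it was 19.1, with 7 REST reads, 1 Ring1b read and 15 MCAF1 reads. The lower bounds of the REST and Ring1b densities in these 4 regions fell under 2 times, so their counts alone do not place any of them above the threshold. In chr13:120612501-120615000, with 19.8-fold H4K20me3, Ring1b had 16 reads (4.77 times, 2.73 to 7.75), and a Ring1b region lay 4 kb and an MCAF1 region 3 kb away.

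The highest Ring1b densities lay where the surrounding 1 Mb was rich in Ring1b. At chr6:52220001-52221500, Ring1b had 63 reads, 31.3 times the genome mean (24.1 to 40.1), beside 37 H4K20me3 reads (7.29 times), 2 REST reads and 11 MCAF1 reads. The Ring1b background there was 8.40 times the genome mean, and the nearest Ring1b region was 15.5 kb away. Similar values were found at chr15:102913501-102915000, with 59 Ring1b reads (29.3 times) over a background of 7.71 times, and on chromosome 11 at chr11:95646001-95647500 and chr11:95730001-95731500, with 57 and 53 Ring1b reads over backgrounds of 6.95 and 8.70 times. At chr11:95646001-95647500 REST also had 18 reads (8.82 times, 5.23 to 13.9) and MCAF1 34 reads (4.73 times). These 4 regions were kept from a Ring1b call by the local background and not by few reads.

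REST density was highest in a pair of regions near the proximal end of chromosome 11, where all libraries were dense. The region chr11:3032001-3033000 held 32 REST reads (23.5 times, 16.1 to 33.2), 24 Ring1b reads (17.9 times), 110 MCAF1 reads (22.9 times) and 123 H4K20me3 reads (36.3 times). The background over 1 Mb was 5.14, 4.93, 5.74 and 6.84 times the genome mean in the same order, and 161 H4K20me3 alignments had 2 locations. Its neighbour chr11:3036501-3038000 held the highest MCAF1 density of the set, with 167 reads (23.2 times, 19.8 to 27.02), and 216 H4K20me3 alignments with 2 locations. Called regions lay close to both. The nearest MCAF1 region was 0 kb from chr11:3032001-3033000 and 1 kb from its neighbour. The nearest Ring1b region was 2 and 0.5 kb away. On chromosome 8, chr8:12671501-12672500 held 17 REST reads (12.5 times, 7.28 to 19.999) and 15 Ring1b reads (11.2 times, 6.26 to 18.5). It also held 28 MCAF1 reads (5.84 times, 3.88 to 8.44) and 54 H4K20me3 reads (16.0 times), with 0 H4K20me3 alignments of 2 locations. Its background over 1 Mb was 2.02, 2.70, 2.04 and 2.35 times the genome mean for REST, Ring1b, MCAF1 and H4K20me3. The nearest REST region was 29.5 kb and the nearest Ring1b region 168.5 kb away. On the same chromosome, chr8:108596501-108597500 had 17 REST, 16 Ring1b, 28 MCAF1 and 43 H4K20me3 reads. There the background was 2.22, 2.502, 2.05 and 2.24 times the genome mean in the same order. A Ring1b region lay 6 kb and a REST region 13 kb away. For these 2 regions every factor's lower bound was above 2 times the genome mean, without correction for the denser background. At chr1:136963501-136964500, REST also had 17 reads, with 7 Ring1b reads (5.22 times, 2.10 to 10.8) and 12 MCAF1 reads. MCAF1 was next highest at chr10:80581001-80582500, with 68 reads (9.46 times, 7.34 to 12.0) and 194 H4K20me3 alignments of 2 locations. A Ring1b region lay 0.5 kb away. At chr17:6374501-6375500 MCAF1 had 45 reads (9.39 times, 6.85 to 12.6). An MCAF1 region lay 0.5 kb, a REST region 2.5 kb and a Ring1b region 3 kb from there. At chr19:44608001-44609000 MCAF1 had 37 reads (7.72 times, 5.43 to 10.6).

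The widest sub-threshold regions had low factor densities over long H4K20me3 stretches. The region chr7:132879501-132888000 covered 8500 bp with 329 H4K20me3 reads (11.4 times, 10.2 to 12.7), 134 MCAF1 reads (3.29 times, 2.76 to 3.89), 27 REST reads (2.33 times) and 21 Ring1b reads (1.84 times). At chr16:22319501-22326000, 6500 bp wide, H4K20me3 had 379 reads (17.2 times, 15.5 to 19.1), MCAF1 127 (4.08 times, 3.40 to 4.85), REST 26 (2.94 times) and Ring1b 20 (2.29 times). Neither held an H4K20me3 alignment with 2 locations, and their nearest Ring1b regions lay 64.5 and 137.5 kb away. The next, chr3:3006501-3011500, was 5000 bp wide, with 20 REST reads (2.94 times), 20 Ring1b reads (2.98 times), 66 MCAF1 reads (2.75 times) and 169 H4K20me3 reads (9.99 times), and it held 62 H4K20me3 alignments of 2 locations.

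Regions nearest the threshold held few reads of either factor. Just inside it, chr4:149024501-149027000 had 7 REST reads (2.06 times, 0.827 to 4.24) and 5 Ring1b reads (1.49 times). The regions chr5:20225501-20228000 and chr5:104826501-104829000 had the same REST values and 4 and 6 Ring1b reads. Just outside, chr1:6003001-6004500 had 0 REST reads and 4 Ring1b reads (1.99 times, 0.542 to 5.09), and chr1:10862001-10863500 and chr1:11280001-11281500 had the same Ring1b values and 3 and 1 REST reads.

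Reads of a factor at exactly the position of an H4K20me3 read were counted because such reads could be shared molecules. In sub-threshold regions 370 of 18814 REST reads shared position and strand with an H4K20me3 read, against 338 to 394 at 8 small displacements. For Ring1b 458 of 23737 reads did so, against 403 to 493, and for MCAF1 1187 of 50952, against 921 to 1070. The MCAF1 count lay above its displaced range and the others inside theirs. Which end a minus-strand position marks is not given, and seed lengths differed between REST or Ring1b and H4K20me3. Reads of the same molecule may therefore not share a minus-strand position, and the effect on the REST and Ring1b counts was not tested. Repeated positions, of which only 1 read was kept, took 13.8% of REST and 5.48% of Ring1b reads in sub-threshold regions, and 12.6% and 6.31% over the nuclear genome.

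The H4K20me3 signal was less separate from the other profiles in sub-threshold than in factor-poor regions. When the other 3 libraries were pooled and scaled as an additional background for the highest window, 196 of 2650 sub-threshold regions still met the call (7.40%, 6.43% to 8.46%), against 825 of 1323 factor-poor regions (62.4%, 59.7% to 65.0%). REST and Ring1b form part of the pooled background and chose the sets, which fixes the direction of this difference. The 196 regions had a median MCAF1 density of 1.67 times (1.53 to 1.81), against 1.39 times (1.25 to 1.46) in the 825 factor-poor regions that met the call. MCAF1 is also part of the pooled background, so meeting the call selects for low MCAF1 density in both sets. The ratio of H4K20me3 to MCAF1 density in the same window, which uses neither REST nor Ring1b reads, had a median of 2.97 (2.93 to 3.07) in sub-threshold, 4.86 (4.72 to 5.06) in factor-poor and 3.33 (3.26 to 3.42) in Ring1b-shared regions. With every library thinned to 3083311 reads, 755 sub-threshold regions were called, with a median MCAF1 density of 2.80 times.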

How the data were processed

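Per the file headers, the authors aligned reads with Bowtie to the mm8 mouse assembly, reporting up to 2 locations per read and dropping reads with more. The deposited values are signed read positions, not normalised, with no counts per feature. The Bowtie version and an input library are not given in the sources used here, and no mm8 annotation or genome was used, so no gene is named. For minus-strand reads, which end of the alignment a position stands for is not given either.

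Reads with 1 location were reduced to 1 per position and strand and moved 75 bp towards 3′. Windows, calls and sets are as defined above. Density is reads per base over the library's mean over 4598722 covered windows. Overlap needed 1 bp; positions were read as counting from 0 and are given from 1. Medians have order-statistic intervals, shares Clopper-Pearson and read numbers Poisson intervals. Named regions were the 5 highest by H4K20me3 fold and by REST, Ring1b or MCAF1 density, the 3 highest by the smaller of the REST and Ring1b densities, the 3 widest, and the 3 nearest the threshold on each side. Calling and sorting were tested on simulated data, where some planted regions without factor signal also passed the threshold of 2 times, so the sub-threshold set can hold such regions. The members, sets and lists were chosen with earlier results of these data known. The alternatives numbered 13, of which 4 were added after the data were examined. Computation used numpy 2.4.6 and scipy 1.17.1 under Python 3.11.15, and plots used matplotlib 3.10.9.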

Additional observations from a re-analysis of the deposited data

How the results depend on the processing

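No paired analysis was possible because each antibody had 1 library. In all 13 alternatives median MCAF1 density was higher in sub-threshold than in factor-poor regions (1.67 to 3.20 against 1.39 to 1.88 times), and so was Ring1b density in the flanks (1.24 to 1.61 against 0.694 to 0.966 times). The number of sub-threshold regions left the range of 1.5 times its reported value in 3 alternatives, with 755 after thinning, 656 with factors called at 0.001 and 3-fold, and 196 with the pooled background. For the remaining values the cause of a change was not tested. At a call probability of 1e-06 for all libraries, median MCAF1 density was 2.71 times, the share of sub-threshold regions within 10 kb of a Ring1b region 25.6%, Ring1b in the flanks 1.44 times and the share of plus-strand REST choices that passed on the minus strand 61.9%. At 1e-12 these were 3.20 times, 12.6%, 1.54 times and 80.7%. With a factor threshold of 3 times, MCAF1 was 3.13 times, the flanks 1.56 times and the strand share 66.2%; with 1.5 times, the flanks were 1.48 times and the strand share 75.7%. With factors called at 1e-06 the Ring1b share was 27.7%, the flanks 1.52 times and the strand share 64.3%. With factors called at 0.001 and 3-fold, MCAF1 was 2.29 times, the Ring1b share 43.0%, the flanks 1.29 times and the strand share 43.7%. With the pooled background, which itself selects for low REST, Ring1b and MCAF1 density, MCAF1 was 1.67 times, the flanks 1.24 times and the strand share 32.7%. After thinning, MCAF1 was 2.80 times and the flanks 1.61 times. Leaving out regions within 1 kb of another library's region gave 14.6% and 1.36 times for the Ring1b share and flanks. The flanks were 1.45 times with reads of 2 locations added and 1.52 times with reads not moved, where MCAF1 was 2.92 times. With the factor threshold set against the local mean the flanks were 1.48 times the genome mean. Depth limits single regions: just inside the threshold, 7 REST reads gave 2.06 times with an interval of 0.827 to 4.24.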

Other observations

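The 2 Mb next to the first read of each autosome held 50 of 2650 sub-threshold regions (1.89%, 1.40% to 2.48%), 33 of 1323 factor-poor regions (2.49%, 1.72% to 3.49%) and 58 of 3982 Ring1b-shared regions (1.46%, 1.11% to 1.88%). Of all H4K20me3 regions 2.27% lay there (1.98% to 2.59%), and of all covered windows 1.38%. The 2 Mb before the last read held 55 sub-threshold (2.08%, 1.57% to 2.69%), 18 factor-poor (1.36%, 0.808% to 2.14%) and 70 Ring1b-shared regions (1.76%, 1.37% to 2.22%), against 1.89% of all H4K20me3 regions (1.63% to 2.19%) and 1.52% of covered windows.

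Sub-threshold regions lay a median of 156 kb from the nearest other sub-threshold region, and 306 of them (11.5%, 10.4% to 12.8%) had another within 10 kb.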
